A study of Mus musculus with 6 samples.

Results

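Toll-like receptors are membrane proteins that recognise microbial molecules. This account follows 9 genes of that system through cultured mouse hepatocytes exposed to tumour necrosis factor alpha (TNFα): the receptors Tlr1, Tlr2, Tlr3, Tlr4 and Tlr5, the lipopolysaccharide-handling proteins Lbp, Cd14 and Ly96, and the adaptor Myd88. Members were taken by symbol, as all probes that the platform annotation assigns to these genes, which gave 12 of the 45281 probes on the array. Each gene had 1 probe except Tlr4 with 3 and Myd88 with 2. Of the 9 genes, 7 had a probe bright enough to be tested among 13438 genes in all. The dim probes of Tlr1 and Tlr3 are given as values.

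The cells were primary hepatocytes of male C57Bl/6J mice, plated on collagen-coated dishes. The medium of every group held 5% fetal calf serum, insulin at 1 nM and the glucocorticoid dexamethasone at 50 nM. Untreated cells were compared with cells given 2 ng/mL recombinant murine TNFα for 2 hours and with cells given the same dose for 2 days, and each of the 3 groups holds 2 Illumina expression arrays. Neither the source animals or cultures of the replicates nor the time in culture of the untreated cells is labelled, so the spread between replicates may be technical, and long exposure and time in culture cannot be told apart. Because the RNA comes from bulk cultures, a change in the number of cells of a type and a change in RNA per cell cannot be told apart either.

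Lipopolysaccharide, the outer membrane glycolipid of Gram-negative bacteria, is handed on in steps. The plasma protein Lbp, made by the liver, extracts it from membranes, Cd14 takes it up and passes it to Ly96 (MD-2), and Ly96 holds it in complex with the signalling receptor Tlr4. Tlr2 with Tlr1 or Tlr6 recognises bacterial lipopeptides, Tlr5 recognises flagellin, and Tlr3 binds double-stranded RNA inside endosomes. All of these receptors except Tlr3 signal through the adaptor Myd88 to NF-κB, the transcription factor family that TNFα also activates through its own receptors.

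The members responded unequally. Tlr2 rose most, was above untreated cells at both times and was higher at 2 hours than at 2 days. Cd14 rose at 2 hours and was higher again at 2 days, and Myd88 rose at both times. The Cd14 calls at 2 hours and between the times were lost after a background correction (normexp) and on leaving out some single arrays. The same correction ended both calls of Myd88, and its dimmer probe was not called at 2 days. Tlr5 and Lbp were lower at 2 days by small amounts. Their calls, at adjusted p = 0.0256 and adjusted p = 0.0435 by limma, were lost when single arrays were left out. Tlr4 and Ly96 showed no called change, and Tlr1 and Tlr3 were too dim to be among the 7 members tested. A change is a difference of log2 intensities and SE is its standard error. A limma model of all genes tested gave the adjusted p-values, and a change is called at an adjusted p under 0.05. At 2 hours 3 of the 7 tested members were called higher and 0 lower (4 of the 7 had an unadjusted p under 0.05 in limma), where 1.76% of all genes tested were called higher and 1.06% lower. At 2 days 3 were higher and 2 lower, against 6.74% and 5.92% of all genes. Between the times, 1 was higher at 2 days and 2 were lower, against 8.63% and 6.67%. The median change of the 7 was 0.28 at 2 hours and 0.26 at 2 days, beside a median of -0.01 and 0.01 over all genes tested. Both comparisons with untreated cells use the same 2 untreated arrays. Groups of 2 arrays can separate easily, and the share of all probes whose groups do not overlap was not counted. Statements on overlap below are therefore descriptions of the values alone.

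**Figure D1:**
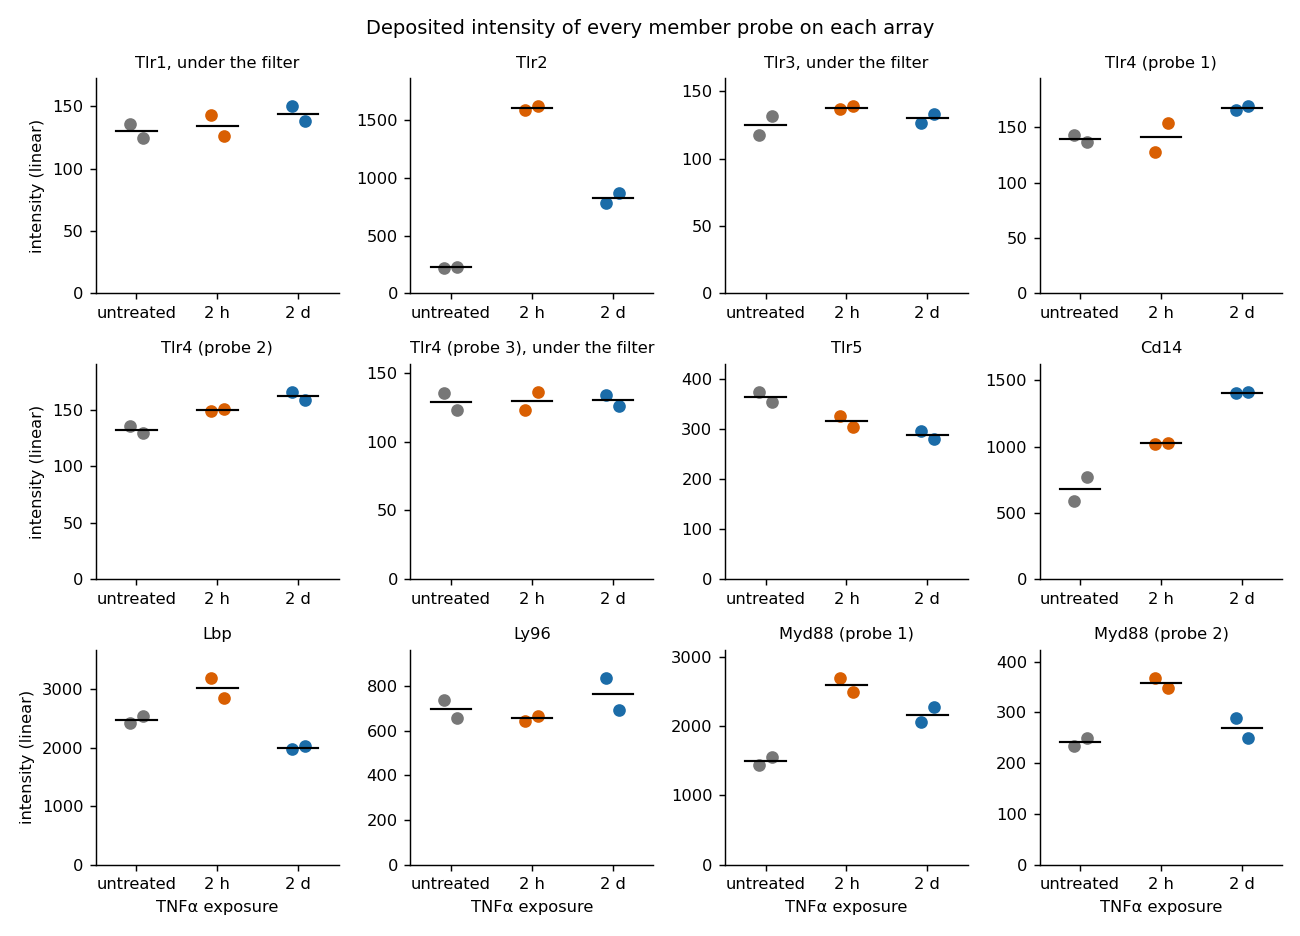
Deposited intensity (linear scale, from 0) of each of the 12 member probes on the 6 arrays, by TNFα exposure; points are arrays and bars are means of 2. The Tlr2 arrays separate completely between the 3 groups, as do those of Cd14, Lbp, Tlr5, the brighter Myd88 probe and the second Tlr4 probe, which is dim and not called. For the dimmer Myd88 probe the highest untreated array (250.1) and the lowest 2 day array (250.4) are level. The share of all probes that separate in this way was not counted. The points of Tlr1, Tlr3 and the 3 Tlr4 probes stay between 118 and 169.

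The response check held 5 NF-κB targets: the chemokines Cxcl1 and Ccl2, the adhesion molecule Icam1, and the NF-κB inhibitors Tnfaip3 and Nfkbia. Of these, 5 of 5 were called higher at both times, where 1.76% of all genes tested were at 2 hours and 6.74% at 2 days. They were chosen with earlier results of these data known, so these calls describe the arrays and do not test the treatment. The correlation over genes was 0.995 to 0.996 between the 2 arrays of a group and 0.982 to 0.991 between arrays of different groups. Of 12 hepatocyte markers, 7 lay above the 90th percentile of every array, among them Apoa1, Ttr and Trf. The single probes of Alb, whose product albumin is the main plasma protein that hepatocytes make, and of Fgb were dim, with Alb between 145 and 174. A dim probe on this array therefore does not show that its gene is silent. Of 16 macrophage markers 11 could be tested, and their summed intensity was 1823 to 1864 in untreated cells, 1795 to 1813 at 2 hours and 2061 to 2211 at 2 days. Limma called 0 of the 11 at 2 hours (2 had an unadjusted p under 0.05). At 2 days 4 were called higher, where 6.74% of all genes tested were. The 4 were Cd163 and the complement components C1qa, C1qb and C1qc, with C1qb going from 180 and 174 in untreated cells to 265 and 334. Vsig4, another Kupffer cell marker, read 234 and 224 in untreated cells, 191 and 199 at 2 hours and 223 and 263 at 2 days, and was called higher at 2 days than at 2 hours (0.31, adjusted p = 0.0433 by limma). Against untreated cells its 2 day change was 0.08 and that of Marco 0.30, neither called. Csf1r stood at 0.08, Fcgr1 at 0.0008, Adgre1 at -0.04, Lyz2 at -0.09 and Timd4 at -0.14, none called. The probes of the Kupffer cell markers Clec4f and Cd5l were dim, under the median of every array. Of 10 neutrophil and lymphocyte markers 3 could be tested, with summed intensities of 454 to 455, 431 to 504 and 458 to 476 in the 3 groups in order of exposure. The summed intensity of 4 tested bile duct markers was 1364 to 1380.4 in untreated cells, 1955 to 1987 at 2 hours and 3335 to 3586 at 2 days, and that of 6 tested stellate cell markers was 2593 to 3038, 2643 to 2857 and 3347 to 4012. In the bile duct list Sox9 was the 1 marker called at either time, higher at both, and in the stellate list Acta2 was called higher at 2 days while Reln was called higher at 2 hours and lower at 2 days. The rises of these 2 sums lay in single genes. In order of exposure, Sox9 averaged 847, 1467 and 2911.5 and Acta2 1578, 1360 and 2507. The other bile duct markers averaged 149, 143 and 158 (Krt7), 204, 208 and 233 (Krt19) and 172, 153 and 159 (Cldn7). The 10 endothelial markers summed to 1936 to 2098 in untreated cells, 2029.9 to 2229 at 2 hours and 1999 to 2016 at 2 days. All of these sums still hold the background of each probe, which damps their folds. The part of these cell types in the members' values was not tested.

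Lbp read 2422 and 2531 in untreated cells, 3188 and 2843 after 2 hours and 1970.4 and 2023 after 2 days. Both 2 hour arrays lay above both untreated ones and both 2 day arrays below them, so the order of levels was 2 hours, untreated, 2 days. The step from 2 hours down to 2 days was called (log2 -0.59, SE 0.10, adjusted p = 0.000125 by limma), a 1.51-fold difference. The position of untreated cells between them was less certain. At 2 hours Lbp stood at 0.28 (95% interval 0.07 to 0.49, adjusted p = 0.19 by limma), and the fall of 2 days against untreated was -0.31 (SE 0.10, adjusted p = 0.0435 by limma). That last call was lost in 10 of 18 alternatives, including the omission of any 1 of the 6 arrays (adjusted p up to 0.192 by limma) and normexp background correction (-0.32, adjusted p = 0.251 by limma), although the value stayed between -0.34 and -0.28 throughout. Markers of hepatocytes, the cells that make Lbp, moved the same way at 2 days: 5 of 11 were called lower, where 5.92% of all genes tested were. Their summed intensity was 97240 to 97770 at 2 days, against 141283 to 147083 in untreated cells and 141319 to 141354 at 2 hours. Their part in the Lbp value was not tested.

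Cd14, the co-receptor that receives lipopolysaccharide from Lbp, read 593 and 768 in untreated cells, 1023 and 1025 at 2 hours and 1406 and 1411 at 2 days. The groups did not overlap, and levels stood in the order of exposure. Cd14 rose 1.52-fold at 2 hours (log2 0.60, SE 0.11, adjusted p = 0.00132 by limma) and 2.09-fold at 2 days (log2 1.06, SE 0.11, adjusted p = 1.05e-07 by limma). The further step from 2 hours to 2 days was 0.46 (SE 0.11, adjusted p = 0.00466 by limma). The untreated arrays differed most from each other: without untreated replicate 1 the 2 hour rise was 0.41 and not called (adjusted p = 0.0891 by limma), and after normexp it was 0.68 and not called (adjusted p = 0.207 by limma). The 2 day rise kept its call in all 18 alternatives. The step between the times lost its call after normexp (0.50, adjusted p = 0.139 by limma) and without 2 hour replicate 1 (0.46, adjusted p = 0.0501 by limma) or 2 hour replicate 2 (0.46, adjusted p = 0.0522 by limma).

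Macrophages also express Cd14. At 2 hours, when Cd14 was called higher, 0 of the 11 tested macrophage markers were called and their mean summed intensity was 1804, against 1844 in untreated cells. At 2 days their mean sum was 2136 and 4 of 11 were called higher. These sums still hold the background of 11 probes, which damps their fold, so its size cannot be set beside the 2.09-fold rise of Cd14. The part of macrophage RNA in the Cd14 values was not tested at either time.

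Ly96, the lipopolysaccharide-binding subunit of the Tlr4 complex, read 738 and 659 in untreated cells, 644 and 667 at 2 hours and 836 and 694 at 2 days. The 2 untreated arrays overlapped with both exposed groups, and no comparison was called. The interval of the difference from untreated cells ran from -0.31 to 0.13 at 2 hours and from -0.10 to 0.35 at 2 days.

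Tlr4, the signalling receptor for lipopolysaccharide, had 3 probes, all dim. The brightest read 143 and 137 in untreated cells, 128 and 154 at 2 hours and 166 and 169 at 2 days. Its change was 0.01 (95% interval -0.21 to 0.22) at 2 hours and 0.26 (0.04 to 0.48, adjusted p = 0.122 by limma) at 2 days. The second probe read 136 and 129.6, 149 and 151, and 166 and 159 in the same order, which is 0.29 at 2 days (adjusted p = 0.0584 by limma with each of 26272 probes tested on its own). The third probe, at 123 to 136, stayed under the median of every array and moved by 0.01 at each time. On the 2 brighter probes both 2 day arrays stood above both untreated arrays, and the 3 groups of the second probe did not overlap, but no Tlr4 probe was called. In the fit of every probe, 1.89% of probes were called at 2 hours, 9.63% at 2 days and 11.6% between the times, in either direction. The deposited intensities still hold background, which damps the fold of a dim probe. After normexp, which estimates a background and subtracts it, the 2 day value of the brightest probe was 0.65, also not called (adjusted p = 0.208 by limma).

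**Figure D2:**
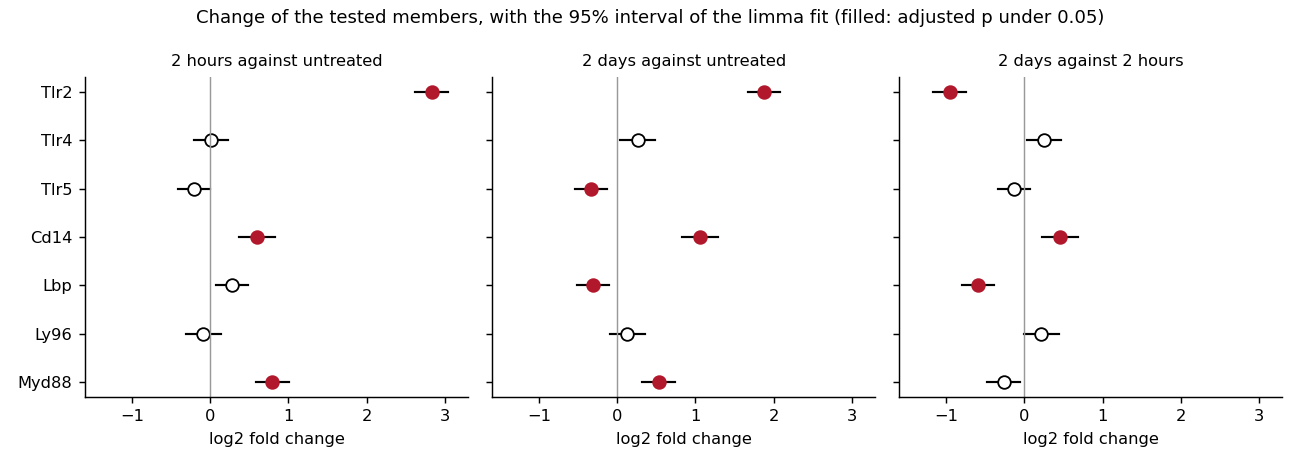
Log2 fold change of the 7 tested members in each comparison, with the 95% interval of the limma fit as a line; filled points have an adjusted p under 0.05. Tlr2 stands alone at the right at 2 hours (2.83) and at 2 days (1.88), and Lbp lies on opposite sides of 0 against untreated cells at the 2 times (0.28, not called, and -0.31).

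Tlr2, the lipopeptide receptor, read 221 and 229 in untreated cells, 1586 and 1618 at 2 hours and 784 and 869.5 at 2 days. No array of any group came near another group's values. The 2 hour rise was 7.12-fold (log2 2.83, SE 0.10, adjusted p = 1.37e-16 by limma), and the 2 day rise was 3.67-fold (log2 1.88, SE 0.10, adjusted p = 5.02e-13 by limma). Between the times Tlr2 fell by 0.96 on the log2 scale (SE 0.10, adjusted p = 9.55e-08 by limma), so the order of levels was 2 hours, 2 days, untreated, with each neighbouring pair called. All 3 calls held in all 18 alternatives. The size of the rise depends on the background: after normexp the folds were 11.3 at 2 hours and 5.49 at 2 days. Tlr2 is also expressed by macrophages, of whose 11 tested markers 0 were called by limma at 2 hours (2 had an unadjusted p under 0.05) and 4 were called higher at 2 days. Their part in the Tlr2 values was not tested.

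The profile of Tlr2 over the 6 arrays, taken as differences from its untreated mean, had a length of 4.80 log2 units. By Euclidean distance the 3 most similar of all genes tested were the adhesion molecule Vcam1 (distance 0.79), the NF-κB inhibitor Nfkbia (0.97) and Icam1 (1.05). Vcam1 changed by 3.35 at 2 hours and 2.05 at 2 days, and Nfkbia by 2.43 and 1.32.

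The 250 bases upstream of the transcription start were read for the members listed in the RefSeq promoter table of build GRCm38.p6 that could be shown, which were Tlr1, Tlr2, Tlr3, Tlr5 and Myd88, with 6 windows in all. No window is given here for Cd14, Lbp, Ly96 or Tlr4, so nothing is said of their motifs. They were searched on both strands for the binding motif of NF-κB, as the κB consensus and as the shorter pattern GGNNNTTCC, for the AP-1 motif TGANTCA and for GAAANNGAA, a pattern of interferon-stimulated promoters. The consensus was found in 3.9% of all 32851 windows of the table, the shorter pattern in 15.7%, the AP-1 motif in 6.75% and the interferon pattern in 7.13%. The 30 bases around a match are shown for the members with one, 5′ to 3′ on the strand of the gene, with the match in capitals. The consensus stands upstream of Tlr2, the most responsive receptor, and of Tlr3, whose probe was too dim to pass the filter. The response of Tlr3 can therefore not be set beside that of Tlr2.

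Tlr2, κB consensus, chr3:83841762-83841791, minus strand: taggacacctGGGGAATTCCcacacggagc

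Tlr3, κB consensus, chr8:45410572-45410601, minus strand: agttgtttctGGGAGTTTCCtgcttttgag

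Tlr5, shorter pattern, chr1:182954758-182954787, plus strand: agcagcgggcGGTGTTTCCctctcctcccc

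Myd88, interferon pattern, chr9:119340039-119340068, minus strand: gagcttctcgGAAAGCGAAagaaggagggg

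In Tlr2 the match starts 173 bases before the start used in the table, and a second consensus match begins 1 base further on at 172, so that the 2 overlap, as do the matches of the shorter pattern on the 2 strands. In Tlr3 the match starts 211 bases before the start, and the shorter pattern overlaps it. The Tlr5 match is 20 bases and the Myd88 match 40 bases before the start. Neither Tlr1 window held any of the 4 motifs, and the AP-1 motif was in none of the 6 windows. A match describes these letters alone and shows neither binding nor its absence.

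Tlr1, the partner of Tlr2 for triacylated lipopeptides, stayed dim while Tlr2 rose, at 136 and 125 in untreated cells, 143 and 126 at 2 hours and 149.8 and 138 at 2 days. Only 1 of the 6 arrays exceeded its array's median, so Tlr1 did not pass the filter. Fitted without the filter among 19057 genes, its change was 0.04 (95% interval -0.16 to 0.25) at 2 hours and 0.14 (-0.06 to 0.35) at 2 days, neither called by limma. Tlr6, the other partner, was tested and read between 150 and 173 on all arrays, with changes of 0.01 and -0.02.

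Tlr3 read 118 and 132 in untreated cells, 137 and 139 at 2 hours and 127 and 133 at 2 days, and was under the median of every array. Without the filter its change was 0.14 (95% interval -0.05 to 0.34) at 2 hours and 0.06 (-0.14 to 0.26) at 2 days, neither called by limma. Both 2 hour arrays lay above both untreated ones by a margin smaller than the gap between the untreated arrays.

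Tlr5, the flagellin receptor, read 374 and 354 in untreated cells, 327 and 305 at 2 hours and 296 and 281 at 2 days. The groups did not overlap and stood in descending order of exposure. The change was -0.20 at 2 hours (95% interval -0.41 to 0.0021, adjusted p = 0.431 by limma) and -0.34 at 2 days (SE 0.10, adjusted p = 0.0256 by limma), and the difference between the times was -0.13 (-0.34 to 0.07, not called). Tlr5 was thus called against untreated cells at 2 days alone, and whether its 2 changes differ was not shown. The 2 day call was lost without either untreated array or either 2 day array, at values of -0.37 to -0.30 and adjusted p = 0.0527 to 0.178 by limma, and after normexp (-0.47, adjusted p = 0.115 by limma).

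Myd88, the adaptor shared by these receptors other than Tlr3, had 2 probes above the filter. The brighter read 1438 and 1547 in untreated cells, 2691 and 2493 at 2 hours and 2051 and 2269.7 at 2 days, with no overlap between groups. It rose 1.74-fold at 2 hours (log2 0.80, SE 0.10, adjusted p = 8.23e-06 by limma) and 1.45-fold at 2 days (log2 0.53, SE 0.10, adjusted p = 0.000524 by limma). The dimmer probe read 234 and 250.1, 368 and 348, and 289 and 250.4 in the same order, so its lowest 2 day array was level with its highest untreated array.

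The dimmer Myd88 probe also rose at 2 hours (0.56, adjusted p = 0.00172 by limma over all probes), but at 2 days it stood at 0.15 and was not called (adjusted p = 0.472). Between the times it fell by 0.41 (adjusted p = 0.00778 by limma over all probes), where the brighter probe gave -0.26 (adjusted p = 0.0883 by limma). Both probes are assigned to the same transcript record, and the difference between them was not tested. After normexp the brighter probe gave 0.84 at 2 hours and 0.56 at 2 days, neither called (adjusted p = 0.0604 and adjusted p = 0.0711 by limma).

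The same distance was taken for the other called members. Nearest to Cd14 was Apaf1, the apoptosome scaffold (distance 0.22, with changes of 0.46 and 1.06), followed by Rhoc (0.30) and Csrp1 (0.33). Nearest to Myd88 were Pard6g (0.13), Zfp429 (0.25) and Phlda1 (0.28). Nearest to Lbp were Nrn1 (0.12), Dennd4a (0.12) and Zfand2b (0.13), and nearest to Tlr5 were Fem1c (0.06), Oxsr1 (0.08) and Ern1 (0.08). The profiles of Lbp and Tlr5 were themselves short, at 0.61 and 0.57, so a small distance says less for these 2.

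Around the members, the pathway was followed through 7 lists of related genes. Counts in these lists stand beside 1.76% of all genes tested called higher and 1.06% lower at 2 hours. At 2 days the shares were 6.74% and 5.92%. Of 9 other Toll-like receptors and homologues 6 could be tested (Tlr6, Tlr7, Tlr9, Tlr12, Tlr13 and Cd180), and limma called 0 in each comparison (0 had an unadjusted p under 0.05). Their brightest reading stood at the 70.2nd percentile of its array. Of 6 chaperones and trafficking factors that bring the receptors to their membranes, 5 could be tested and limma called 0 at either time (1 had an unadjusted p under 0.05 at 2 days). These included Unc93b1, the carrier of the endosomal receptors, at 0.17 and 0.22, and the chaperone Hsp90b1 at -0.26 and -0.19.

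Among the other adaptors, Tirap, which bridges Tlr2 and Tlr4 to Myd88, stood at -0.14 and 0.06, and Ticam1, the adaptor of Tlr3, at 0.00 and -0.11, with no call. Pik3ap1, an adaptor for phosphoinositide kinase signalling, rose at 2 days (0.56, adjusted p = 0.000392 by limma), a call lost after normexp (0.59, adjusted p = 0.0708 by limma). Of 5 adaptors 3 could be tested.

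Of 19 signalling kinases and ubiquitin ligases 16 could be tested, and 1 was called at 2 hours and 2 at 2 days, all higher. Ikbke, an IκB kinase-related kinase, read 200.3 and 177 in untreated cells, 583 and 671 at 2 hours and 466 and 410.5 at 2 days. It rose by 1.73 at 2 hours (adjusted p = 1.67e-11 by limma) and 1.22 at 2 days (adjusted p = 5.82e-09 by limma). Traf6, the ubiquitin ligase downstream of Myd88, was higher at 2 days (0.33, adjusted p = 0.0289 by limma), but its 2 other probes gave -0.01 and 0.03, and the call was lost after normexp (0.38, adjusted p = 0.195 by limma) and without any 1 of the untreated or 2 day arrays. The list's median change was 0.06 at 2 hours and 0.07 at 2 days, beside -0.01 and 0.01 over all genes.

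Of 11 inhibitors of the pathway 10 could be tested, and 3 were called higher at 2 hours and 3 at 2 days, with 1 lower at 2 days. Irak3, the kinase-dead relative that restrains Myd88 signalling, read 270.3 and 227 in untreated cells, 777 and 769.7 at 2 hours and 577 and 550.4 at 2 days. It rose by 1.64 at 2 hours (adjusted p = 2.39e-11 by limma) and 1.19 at 2 days (adjusted p = 4.92e-09 by limma). Tnfaip3, a ubiquitin-editing inhibitor of NF-κB signalling that was also in the response check, rose by 2.77 and 0.85 at the 2 times. Tnip1, its binding partner, rose by 0.95 and 1.28, while its 3 other probes gave -0.02 to 0.52 at 2 hours and 0.15 to 0.73 at 2 days. The mean of its probes gave 0.45 at 2 hours and 0.62 at 2 days, both called (adjusted p = 0.0205 and adjusted p = 0.000653 by limma). Sigirr, a membrane inhibitor of the receptor family, was lower at 2 days (-0.33, adjusted p = 0.0243 by limma), a call lost after normexp (-0.51, adjusted p = 0.0813 by limma) and without any 1 of the untreated or 2 day arrays.

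Of 7 genes listed under other lipopolysaccharide and lipid recognition 4 could be tested, which were Scarb1, Msr1, Itgb2 and Plin2. Limma called 0 of them against untreated cells at either time (0 had an unadjusted p under 0.05). Of 15 other microbial sensors 9 could be tested. Limma called 0 at 2 hours (1 had an unadjusted p under 0.05). At 2 days the RNA sensors Dhx58 (0.61, adjusted p = 0.000189 by limma) and Ddx58 (0.44, adjusted p = 0.00286 by limma) were higher, and their mitochondrial adaptor Mavs was lower (-0.59, adjusted p = 0.000111 by limma).

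**Figure D3:**
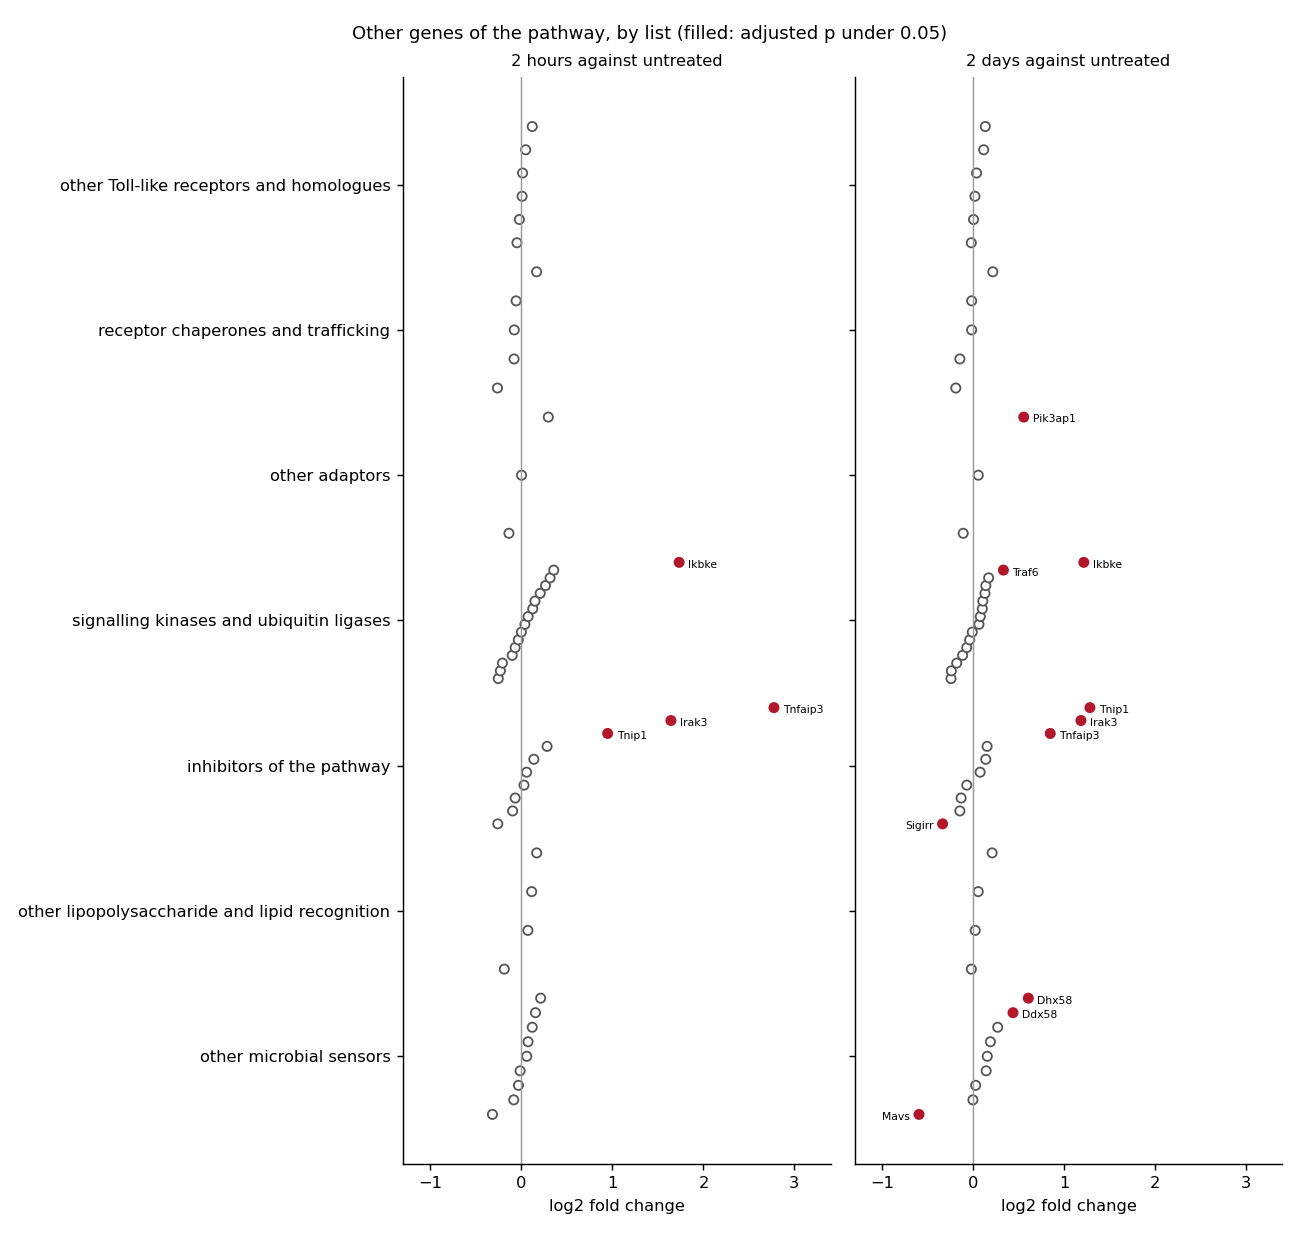
Log2 fold change of each tested gene in the 7 pathway lists against untreated cells at 2 hours and 2 days; points are genes, ordered by change within a list, and filled named points have an adjusted p under 0.05 in limma. The filled points at 2 hours are Ikbke and 3 inhibitors, Tnfaip3, Irak3 and Tnip1, and no point of the other receptors is filled at either time.

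**Figure D4:**
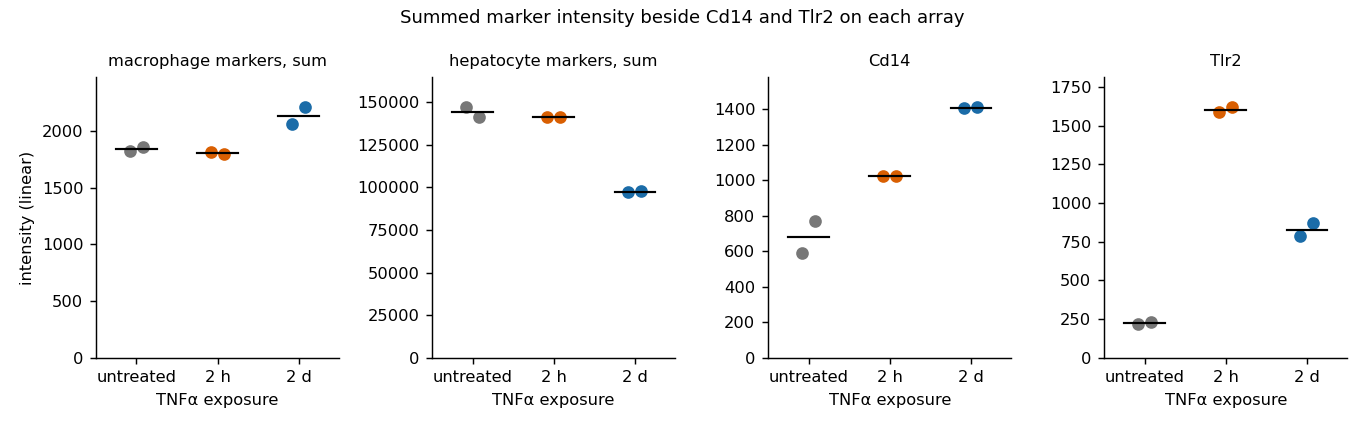
Summed intensity (linear scale, from 0) of the 11 tested macrophage and 11 tested hepatocyte markers beside the intensity of Cd14 and Tlr2 on the 6 arrays; points are arrays and bars are means of 2. Macrophage sums are 1823 to 1864 in untreated cells, 1795 to 1813 at 2 hours and 2061 to 2211 at 2 days. Hepatocyte sums are lowest at 2 days (97240 to 97770). The sums still hold the background of each probe, which damps the fold of dim markers. The part of either in the Cd14 and Tlr2 values was not tested.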

How the data were processed

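Each probe has 1 normalized, linear intensity for each array in the authors' deposited table. Per the labels' protocols, biotin-labelled cRNA was made from total RNA; scanning, summarising and normalization software are not given in the sources used here. From the values, the 6 columns share 1 distribution, as after quantile normalization, with a lowest intensity of 96.5 everywhere. This floor is called background here, and how it arose is not given in the sources used. It damps the folds of dim probes. Probes were named through the platform annotation, with symbols updated through entrez identifiers by RefSeq (GRCm38.p6, names alone); 34885 probes had 1 symbol, 18 several and 10378 none listed. Tests used log2 intensities, not rescaled. Probes brighter than the 50th percentile of the array on at least 2 arrays were kept; a gene was its brightest kept probe by mean log2 intensity. Limma 3.58.1 (R 4.3.3) fitted a mean per group to all 6 arrays, with empirical Bayes moderation (3 residual and 21.22 prior degrees of freedom) and Benjamini-Hochberg adjustment over 13438 genes or, for probes on their own, 26272. The spread behind each p-value is thus mostly shared over all genes, and the 2 arrays per group limit the precision.

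The members and lists were chosen with earlier results of these data known. Named genes are all members, up to 4 called genes with the largest change per pathway list and comparison, the genes of the treatment check, and the 3 nearest genes of each called member. Alternatives covered scaling, background, offset, filter, probes, variance, arrays in the fit, a replicate block and the omission of each array. Replicate numbers were not used to pair the arrays in the main fit. Over all genes tested, deviations from group means correlated at -0.15 to 0.04 between groups. With many dim genes among them, this cannot show whether arrays of the same number share a source. Promoter windows come from RefSeq (GRCm38.p6). The list gene Rigi was read under its older symbol Ddx58.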

Additional observations from a re-analysis of the deposited data

Results flagged for a closer look

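The change from untreated cells differed between the 2 exposure times, by the limma contrast of 2 days against 2 hours, for 3 of the members: it was lower at 2 days by -0.96 for Tlr2 and -0.59 for Lbp and higher by 0.46 for Cd14, on the log2 scale. The dimmer Myd88 probe differed by -0.41 in the fit of every probe. Among the other pathway genes Tnfaip3 (-1.93), Ikbke (-0.52) and Irak3 (-0.46) were lower at 2 days than at 2 hours. Tnip1 (0.34), Tab1 (0.36), Plin2 (0.40) and Dhx58 (0.40) were higher, and each of these 4 calls was lost after normexp and on leaving out some single arrays, as was that of Ikbke; that of Irak3 was lost after normexp. In the fit of every probe, the other probes of Tab1 gave 0.11 and 0.21 and those of Tnip1 0.17, -0.06 and 0.22 between the times, none called. The other Dhx58 probes gave 0.48, called, and 0.25 and 0.14, not called. The brightest Irak2 probe was not called between the times (-0.28), while its 2 other probes gave -0.49 and -0.42, both called. Groups of 2 arrays are too small for a check of single outlying arrays.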

How the results depend on the processing

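Of 21 member values (7 members in 3 comparisons), 12 kept their direction and their side of the threshold in every alternative run, including all 3 of Tlr2. After normexp the counts of genes called were 95 at 2 hours, 655 at 2 days and 810 between the times, against 379, 1701 and 2056, and the members called against untreated cells were 1 (Tlr2) at 2 hours and 2 (Tlr2 and Cd14) at 2 days. The mean of a gene's probes gave 250 genes at 2 hours. Leaving out 1 array gave 187 to 384 genes at 2 hours (209 without 2 hour replicate 1 and 187 without 2 hour replicate 2), 1150 to 1536 at 2 days and 1270 to 2155 between the times (1270 without 2 hour replicate 2). Members called then numbered 2 to 3, 3 to 4 and 2 to 3. The replicate block gave 363, 1638 and 2007 genes, and among the members it ended the 2 day call of Lbp alone (-0.31, adjusted p = 0.0552 by limma). With trended and robust variances and with the compared groups alone that call was also lost. Reversals concerned uncalled values: Tlr4 at 2 hours after normexp (-0.0136) and on leaving out 1 array (-0.13 to 0.14), and Ly96 at 2 days without 2 day replicate 1 (-0.0076; -0.0076 to 0.26 over the arrays left out). Myd88 between the times gained a call with cyclic loess (-0.31, adjusted p = 0.0373 by limma) and with the mean of its probes (-0.34, adjusted p = 0.0163 by limma). The causes were not tested. Dim probes limit what can be seen of Tlr1, Tlr3 and Tlr4.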
